A study of Mus musculus with 12 samples.

Results

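Gene counts of obese mice given pregnenolone 16α-carbonitrile (PCN) were compared with those of lean mice on chow. The comparison took every library labelled HFD PCN (numbers 5, 11 and 27) and every library labelled Chow (numbers 8, 17 and 19), which are 6 of the 12 libraries of the series. It used the 28008 genes that both deposited tables list, of 32772 listed in either. All mice were C57BL/6N, an inbred laboratory strain, and ate chow or, as HFD, a diet high in fat for 18 weeks from the age of 6 weeks. HFD PCN mice were obese and received PCN intraperitoneally at 50 mg/kg daily for 4 days. Chow mice had no injection in the labels. The groups therefore differ in diet, injection and PCN together, and the shares of these in any difference cannot be told apart. HFD PCN and Chow were also deposited in 2 separate tables, each with 6 libraries, so anything that differed between the making of these tables cannot be told apart from the groups either. The 2 other groups, of 3 libraries each, are shown beside them. They are HFD (4, 30 and 38), with the diet and no injection in the labels, and HFD Vehicle (23, 50 and 55), obese mice injected with 30% DMSO in corn oil. Whether each library comes from its own animal is not in the labels, and the p-values rest on the spread between the libraries, which may be technical.

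White adipose tissue stores triglyceride in adipocytes and releases it by lipolysis, a process that insulin restrains and catecholamines start. In obesity the tissue of mice is known for gathering macrophages, many of which surround dying adipocytes, take up lipid and carry a large lysosomal system. In mice, PCN activates PXR, the pregnane X receptor encoded by Nr1i2. This nuclear receptor of liver and intestine switches on genes for the metabolism and export of drugs, with Cyp3a11 as its best known target. The question put to the data is which changes of obesity are still seen with diet, injection and PCN combined.

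Total counts were 16778389 to 26014587 in the HFD PCN libraries and 11702225 to 13756819 in the Chow libraries, so depth differs between the groups. The source label names duodenum while the series title names gonadal white adipose tissue. Fabp4, a fatty acid carrier of adipocytes, lay at 3235, 5959.6 and 3507 CPM (counts scaled to library size) in HFD PCN 5, 11 and 27 and at 8074, 7564 and 5734 CPM in Chow 8, 17 and 19. Epithelial cells of gut would show in Epcam and Vil1, whose highest levels were 0.298 and 1.71 CPM over the 6 libraries, so the markers go with the title and not with the source label. Mitochondrially encoded genes took 7.33% to 29.7% of counts in Chow and 2.83% to 3.2% in HFD PCN, most of it ribosomal RNA, a difference that lies along the same line as the groups. Of the HFD PCN libraries, 11 lay nearest to Chow. Over all genes, which share the library and are no replicates, it correlated with Chow libraries at a mean r of 0.949 in log2 CPM, and HFD PCN 5 and 27 at 0.895 and 0.927. Within HFD PCN the pairs 5 and 27 and 11 and 27 were at an r of 0.9837 and 0.9835, and 5 and 11 an r of 0.976. HFD Vehicle 50 stood apart from its group, at a mean r of 0.97 with Chow and 0.882 with HFD. Values below are in the order HFD PCN 5, 11 and 27, Chow 8, 17 and 19, HFD 4, 30 and 38, and HFD Vehicle 23, 50 and 55. CPM are shares of the RNA of a whole tissue, so fewer cells of a type and less RNA per cell cannot be told apart.

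Of 16188 genes tested, 4424 (27.3%) differed between HFD PCN and Chow at an adjusted p under 0.05. There were 2542 genes higher in HFD PCN (15.7%) and 1882 lower (11.6%), and 1695 and 1081 of these differed by at least 2-fold. For 7627 genes (47.1%) the 3 libraries of HFD PCN lay wholly above or below those of Chow. The median log2 fold change over all tested genes was -0.03, a middle near 0 that the scaling itself largely sets, and rises and falls are relative to it. The number of genes called was 4481 without HFD PCN 11, 2408 without Chow 17, 2222 without Chow 19, 2221 without HFD PCN 5 and 2586 without HFD PCN 27. With upper quartile scaling 2290 were higher and 2296 lower, so the excess of rises over falls depends on the scaling. The number was 2774 in a fit of all 12 libraries, with 70.2% of the calls higher against 57.5% in the fit of 6. Below, rose and fell are used of genes that passed this test in HFD PCN against Chow, and the shares of 15.7% and 11.6% of all genes are the background for each count of rises and falls in a list. The comparisons HFD against Chow (9654 of 16150 genes called, 59.8%) and HFD PCN against HFD (732 of 16927, 4.32%) are given beside it. They share the Chow or the HFD PCN libraries with it, so they are not independent of it. Their own backgrounds for counts in a list are 29.9% higher and 29.9% lower in HFD against Chow. In HFD PCN against HFD they are 2.97% higher and 1.35% lower. All list counts of HFD PCN against HFD rest on calls that numbered 0 without HFD 4, without HFD 38 or with all 12 libraries in 1 fit.

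**Figure D1:**
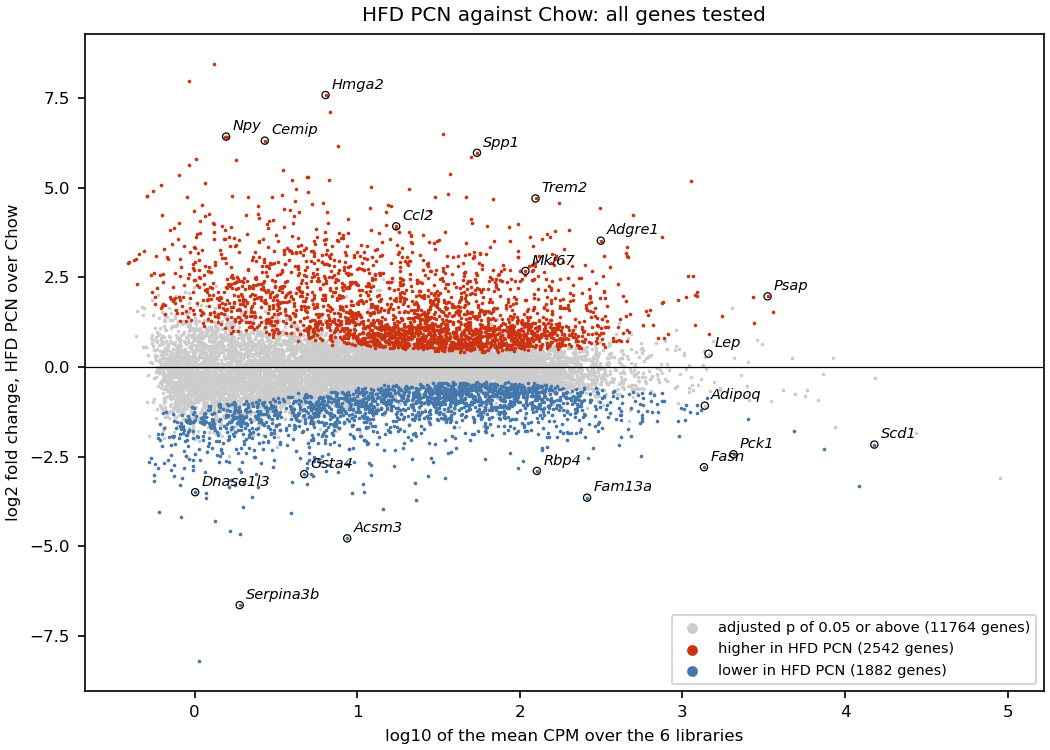
Log2 fold change of HFD PCN over Chow (vertical axis) against log10 of the mean CPM over the 6 libraries (horizontal axis) for the 16188 genes tested. The 2542 genes higher in HFD PCN are red, the 1882 lower are blue and the 11764 others grey; circles mark named genes, with macrophage and cell cycle genes such as Trem2 and Mki67 above 0 and lipid genes such as Fasn and Pck1 below.

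Genes of adipocyte identity and lipid storage were lower in HFD PCN than in Chow. Of 25 tested, 12 fell and 0 rose, against 11.6% and 15.7% of all genes, with a median log2 fold change of -0.87. Pck1 (ENSMUSG00000027513, chr2:173153048-173159273 in GRCm38), which makes the glycerol backbone for fat storage in adipocytes, was at 391, 979 and 619.7 CPM in HFD PCN and 2697, 4031 and 3650.1 CPM in Chow. The 2 groups did not overlap, and the fall had a log2 fold change of -2.44 (SE 0.39, adjusted p = 0.00461). In HFD the same gene was at 198, 131 and 129.6 CPM, below each HFD PCN library. Acvr1c, a receptor of adipocytes for activin-like ligands, fell from 315, 421 and 461 CPM to 66.4, 149 and 104 CPM, a log2 fold change of -1.96 (SE 0.30, adjusted p = 0.00401). Cidec, a coat protein of lipid droplets, fell from 3680.3 ± 739.7 to 1381 ± 505 CPM (SD, n = 3), and its call was lost on leaving out a library (adjusted p = 0.0575 without Chow 17, 0.0607 without HFD PCN 5 and 0.0721 without HFD PCN 27). Adiponectin (Adipoq), the hormone made by adipocytes, stood at 481, 1473 and 752 CPM against 2148, 1953 and 1431 CPM and was not called (log2 fold change -1.08, SE 0.40, adjusted p = 0.0762). HFD PCN 11 overlapped with Chow for Adipoq, while HFD PCN 5 and 27 lay below the lowest Chow library. Leptin (Lep), the satiety hormone, ranged over 1116, 2229.7 and 1608 CPM in HFD PCN and 2054, 884 and 793 CPM in Chow, with overlap of the groups (log2 fold change 0.37, SE 0.41, adjusted p = 0.527). The count of adipocyte falls depended on single libraries: it was 4 with all 12 libraries in 1 fit, 3 without Chow 17, 4 without Chow 19, 3 without HFD PCN 5 and 3 without HFD PCN 27. In HFD against Chow, 18 of the list were lower and 2 higher (29.9% of all genes in each direction), with a median of -1.36. In HFD PCN against HFD, 3 of 24 were higher (2.97% of all genes) and none lower (1.35%).

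Lipolysis genes and their receptors followed the same direction, with 9 of 17 lower and a median of -0.88. Pde3b, the phosphodiesterase through which insulin restrains lipolysis, was at 149, 224 and 155 CPM in HFD PCN and 531, 743 and 721 CPM in Chow (log2 fold change -1.97, SE 0.24, adjusted p = 0.00264). Its 3 HFD PCN libraries lay below the lowest Chow library. Pnpla2, the lipase that starts triglyceride breakdown, was at 429, 802 and 704 CPM against 1241, 1696 and 1304 CPM. The fall of Pnpla2 passed the test (adjusted p = 0.0195) but not in every alternative (adjusted p = 0.0548 with all 12 libraries in 1 fit, 0.0713 without Chow 17, 0.0507 without Chow 19, 0.0572 without HFD PCN 5 and 0.0576 without HFD PCN 27). Hcar2, a receptor that curbs lipolysis, was at 4.54, 6.45 and 6.89 CPM against 9.32, 11.7 and 10.7 CPM (log2 fold change -0.88, SE 0.23, adjusted p = 0.0239), and lost its call without some libraries (adjusted p = 0.0799 without Chow 17, 0.0715 without Chow 19 and 0.0763 without HFD PCN 5). The number of lipolysis genes called lower was 4 with all 12 libraries in 1 fit, 2 without Chow 17, 2 without Chow 19, 1 without HFD PCN 5 and 3 without HFD PCN 27. In HFD against Chow 16 were lower (median -1.39), and in HFD PCN against HFD none was called (median 0.47).

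Fatty acid and triglyceride synthesis genes fell for 9 of 21, and none rose. Fasn (ENSMUSG00000025153, chr11:120805846-120824547), the fatty acid synthase, stood at 191, 529.7 and 334 CPM in HFD PCN and 3084, 1484 and 2521 CPM in Chow, and the fall was a log2 fold change of -2.80 (SE 0.43, adjusted p = 0.0041). HFD lay between them at 1054, 1290.3 and 1025 CPM, and each HFD PCN library was below each HFD library. HFD Vehicle was at 711, 1436 and 483 CPM, so HFD Vehicle 23 and 55 were below HFD too and HFD Vehicle 50 above it. Acaca, which makes malonyl-CoA for that synthase, was at 109, 158 and 149 CPM against 449, 365 and 581 CPM in Chow, with HFD at 173, 154 and 149 CPM. Its fall against Chow was a log2 fold change of -1.79 (SE 0.24, adjusted p = 0.00271). Acacb, the mitochondrial form of the same carboxylase, fell from 218, 412 and 757 to 80.0, 106 and 113 CPM (log2 fold change -2.26, SE 0.42, adjusted p = 0.0069). Gpam, the first acyltransferase of triglyceride synthesis, fell from 164, 288 and 263 to 59, 99.6 and 103 CPM (log2 fold change -1.51, SE 0.28, adjusted p = 0.00743). For Acacb the HFD libraries were lower still, at 64.9, 64.6 and 54.7 CPM. Without Chow 19 the count of this list was 5. HFD against Chow had 11 members lower and 5 higher. HFD PCN against HFD had 2 higher (Acacb and Mlxipl) and 3 lower (Fasn, Acly and Slc25a1).

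Of 22 genes of insulin signalling, 7 fell, against 11.6% of all genes, and 3 rose, a share just below the 15.7% of all genes. Ptpn1, a phosphatase that switches off the insulin receptor, rose from 45.3, 45 and 46.6 to 90.5, 67 and 92.1 CPM. Akt1, a kinase of the pathway, rose from 86.6, 81.2 and 84.4 to 166, 123 and 139 CPM. Akt2, the form that acts on glucose uptake, fell from 207, 306 and 287 to 119, 171 and 149.9 CPM. The log2 fold changes were 0.82 (SE 0.17, adjusted p = 0.00919), 0.72 (SE 0.16, adjusted p = 0.0143) and -0.91 (SE 0.22, adjusted p = 0.0167). The call of Ptpn1 was lost in the fit of 12 libraries (adjusted p = 0.0578 with all 12 libraries in 1 fit), that of Akt1 without Chow 17 (adjusted p = 0.0573 without Chow 17), and that of Akt2 in more than 1 alternative (adjusted p = 0.0548 with all 12 libraries in 1 fit, 0.0643 without Chow 17, 0.0588 without Chow 19, 0.0622 without HFD PCN 5 and 0.0565 without HFD PCN 27). The number of insulin genes called lower was 1 with all 12 libraries in 1 fit, 1 without Chow 17, 1 without Chow 19, 2 without HFD PCN 5 and 2 without HFD PCN 27.

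Genes for breakdown of branched-chain amino acids fell for 17 of 24 against 11.6% of all genes, with a median of -0.84 and none higher. Ivd, which oxidises the leucine product isovaleryl-CoA, was at 42.1, 80.4 and 47.1 CPM in HFD PCN and 170.4, 202 and 231 CPM in Chow (log2 fold change -1.88, SE 0.26, adjusted p = 0.00308). Mccc1 and Mccc2, the subunits of the carboxylase of the next step, were at 25.4, 46.7 and 34.3 and at 19.7, 32.5 and 27.7 CPM, against 93.8 ± 7.2 and 66.4 ± 1.71 CPM (SD, n = 3) in Chow. Both fell, Mccc1 with a log2 fold change of -1.45 (SE 0.22, adjusted p = 0.00366) and Mccc2 with a log2 fold change of -1.37 (SE 0.19, adjusted p = 0.00295). Pccb, a subunit of propionyl-CoA carboxylase, fell from 114, 121 and 98.9 to 40.5, 65.1 and 40.8 CPM (log2 fold change -1.24, SE 0.21, adjusted p = 0.00535). For these 4 genes no HFD PCN library reached the lowest Chow library. The count was 11 with all 12 libraries in 1 fit, 9 without Chow 17, 9 without HFD PCN 5 and 9 without HFD PCN 27. The HFD libraries were alike for Mccc2, at 31.8, 23 and 24.1 CPM, and HFD PCN against HFD had a median of 0.01 with none called. HFD against Chow had 19 lower and 2 higher.

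Of 37 nuclear genes of oxidative phosphorylation, 2 fell (Ndufv1 and Sdha) and none rose, with a median of -0.09, and neither call held without Chow 17 or 19 or HFD PCN 5 or 27. Both shares are below those of all genes, and 4 members fell with upper quartile scaling. Without Chow 8, 3 members were called higher. In HFD against Chow 15 were higher and 2 lower. In HFD PCN against HFD all 37 had a negative log2 fold change, with 1 called lower. The median there was -0.36, against 0.004 over all genes. The mean log2 level of this list relative to Chow was 0.40, 0.26 and 0.35 in HFD, 0.09, 0.10 and -0.23 in HFD PCN and 0.23, -0.43 and 0.13 in HFD Vehicle. Of 17 fatty acid oxidation genes, Cpt1a, the carnitine transferase that admits fatty acids to mitochondria, rose from 130.1, 95.5 and 83.9 to 297, 214 and 227 CPM (log2 fold change 1.21, SE 0.22, adjusted p = 0.00636). Acadvl was the 1 member that fell (4 fell with upper quartile scaling), from 121, 123 and 113 to 81, 98.3 and 75.5 CPM (adjusted p = 0.0326), but 42.9% of its exon bases are shared with another gene and its call was lost in several alternatives (adjusted p = 0.0566 with all 12 libraries in 1 fit, 0.101 without Chow 17, 0.0689 without Chow 19, 0.098 without HFD PCN 5 and 0.126 without HFD PCN 27). Ucp1, the uncoupling protein of thermogenic fat, had at most 0.396 CPM in these 6 libraries and was not tested. Among carbonic anhydrases, which interconvert carbon dioxide and bicarbonate, the mitochondrial Car5b fell from 308, 306 and 292 to 62.5, 132 and 73 CPM (log2 fold change -1.81, SE 0.27, adjusted p = 0.00377). The membrane-bound Car4 fell from 60.4, 61.8 and 56.9 to 24.1, 30.9 and 28.1 CPM (log2 fold change -1.15, SE 0.14, adjusted p = 0.00264). Car9, a form induced in low oxygen, rose from 0.224, 0.16 and 0.114 to 3.64, 1.8 and 2.86 CPM (log2 fold change 3.92, SE 0.50, adjusted p = 0.00264).

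**Figure D2:**
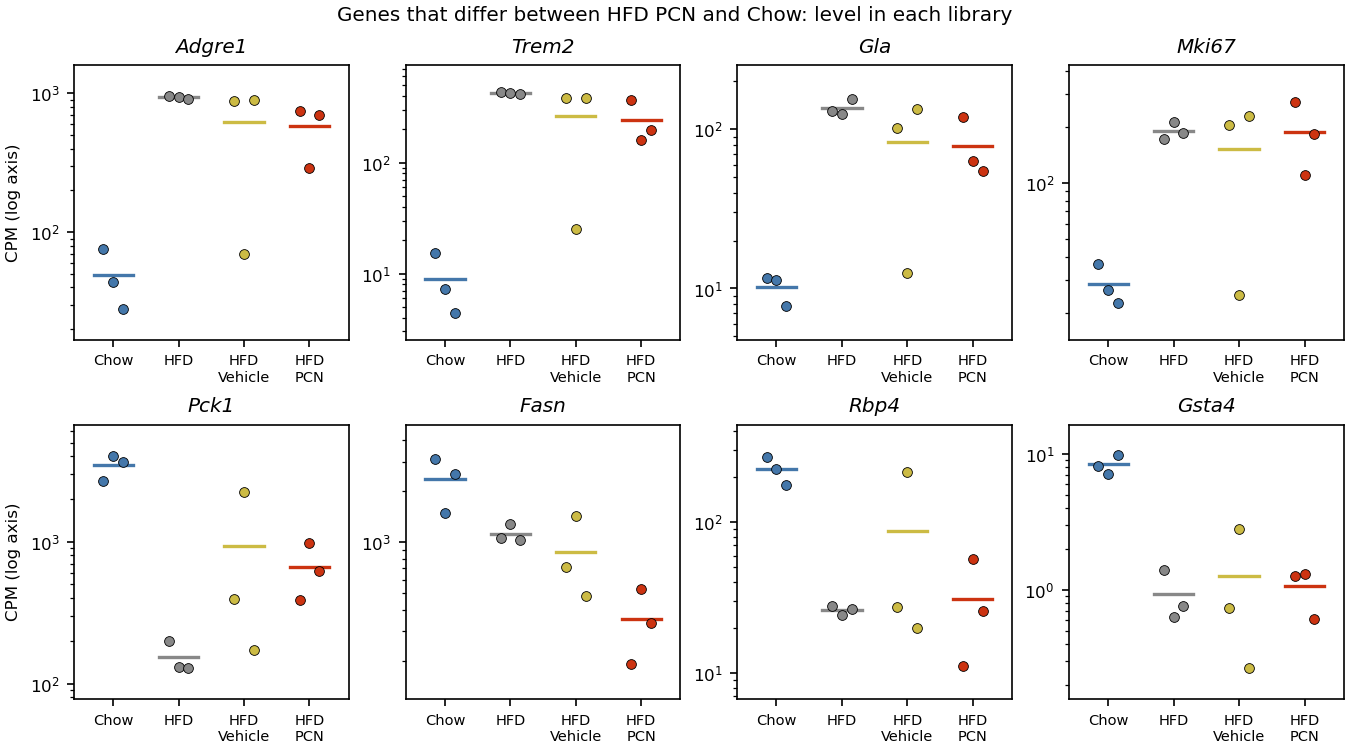
CPM on a log axis of 8 genes in each of the 12 libraries, by group; points are libraries in the order of their numbers and bars are group means. HFD PCN lies above Chow without overlap for Adgre1, Trem2, Gla and Mki67 and below it for Pck1, Fasn, Rbp4 and Gsta4; HFD PCN 11, the middle point, is nearest to Chow for Adgre1, Trem2 and Mki67.

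Macrophage genes were higher in HFD PCN than in Chow. Of 20 general and resident macrophage genes, 16 rose, against 15.7% of all genes, and the median was 2.38. Adgre1 (ENSMUSG00000004730, chr17:57358691-57483527), which encodes the macrophage surface protein F4/80, was at 753, 292 and 695 CPM in HFD PCN and 76, 43.9 and 28.1 CPM in Chow. HFD PCN 11 was the lowest of its group and still above the highest Chow library, and the means differed 11.8-fold, with a log2 fold change of 3.52 (SE 0.47, adjusted p = 0.00271). HFD stood at 955, 947 and 909 CPM. Cd68, a lysosomal membrane protein of macrophages, was at 572, 267 and 283 CPM against 41.8, 22.1 and 13.5 CPM (log2 fold change 3.82, SE 0.47, adjusted p = 0.00264). Clec10a, a lectin of tissue macrophages, was at 220.1, 82.6 and 254 CPM against 36.2, 33.4 and 21.2 CPM (log2 fold change 2.57, SE 0.41, adjusted p = 0.00439), and in HFD at 106, 129 and 134 CPM. Cd163, Mertk, Maf and Timd4, which mark resident macrophages, were the 4 members not called, with log2 fold changes of -0.71, -0.23, 0.60 and -0.07. Lyve1, of the same list, was among the 16 that rose. The median of the list was 2.62 in HFD against Chow, with 16 of 19 higher. In HFD PCN against HFD, 1 member was higher (Lyve1).

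The genes of lipid-associated macrophages, the lipid-laden cells of obese fat, had a median log2 fold change of 3.18, with 16 of 20 higher and none lower. Trem2 (ENSMUSG00000023992, chr17:48346401-48354147), their lipid-sensing receptor, was at 365, 159 and 198 CPM in HFD PCN and 15.2, 7.2 and 4.45 CPM in Chow (log2 fold change 4.70, SE 0.50, adjusted p = 0.00237). Tyrobp, the adaptor of that receptor, was at 404, 201 and 242 CPM against 37.2, 19.4 and 10.9 CPM (log2 fold change 3.61, SE 0.46, adjusted p = 0.00264). The lowest HFD PCN library was several times the highest Chow library for both. Capg, an actin-capping protein, was at 484, 317 and 217 CPM against 48.7, 27.8 and 24.2 CPM (log2 fold change 3.30, SE 0.37, adjusted p = 0.00237). Spp1, the secreted protein osteopontin, was at 133, 25.3 and 164 CPM against 2.76, 1.6 and 0.342 CPM (log2 fold change 5.97, SE 0.81, adjusted p = 0.00284), with 18.8% of its exon bases shared with another gene. In HFD the 4 genes were at 429.8, 427 and 419.5 CPM (Trem2), 515, 492 and 542 CPM (Tyrobp), 582, 605 and 653 CPM (Capg) and 218, 251 and 267 CPM (Spp1). HFD PCN 5 was thus near the HFD libraries for Trem2, while HFD PCN 11 and 27 lay between Chow and HFD. None of the list was called between HFD PCN and HFD, with a median of -0.85, and HFD against Chow had a median of 4.31. The members of this list that were not called, Lpl, Acp5, Apoe and Cd36, had log2 fold changes of -0.75, -0.18, 0.24 and 0.24, and of these Lpl and Cd36 are also made by adipocytes.

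Lysosomal genes were also higher in HFD PCN than in Chow. Of 33 genes for lysosomal enzymes, the proton pump and their regulators, 28 rose and none fell, with a median of 1.73. The promoters of many such genes hold an E-box of the form TCACGTGA, the sequence bound by TFEB and related factors, so 3 promoters of members that rose are shown with this motif in capitals. They are the 250 bases before a start of the gene in RefSeq (build GRCm38.p6), 5′ to 3′ on the strand of the gene. For Gla this start lies inside the gene coordinates given below, so part of its window does too. Ctsa has 2 windows, and the 1 with the most matches is shown.
Gla (chrX:134601006-134601255, minus strand): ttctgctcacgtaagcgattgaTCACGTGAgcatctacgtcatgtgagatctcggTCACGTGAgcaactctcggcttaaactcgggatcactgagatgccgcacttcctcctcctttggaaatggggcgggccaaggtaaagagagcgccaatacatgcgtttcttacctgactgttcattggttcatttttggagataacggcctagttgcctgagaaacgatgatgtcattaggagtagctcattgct
Ctsd (chr7:142387828-142388077, minus strand): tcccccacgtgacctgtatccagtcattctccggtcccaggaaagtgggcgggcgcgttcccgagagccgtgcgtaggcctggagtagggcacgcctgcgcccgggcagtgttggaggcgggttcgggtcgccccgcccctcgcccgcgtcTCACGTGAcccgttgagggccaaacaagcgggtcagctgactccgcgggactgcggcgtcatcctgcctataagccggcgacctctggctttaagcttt
Ctsa (chr2:164833523-164833772, plus strand): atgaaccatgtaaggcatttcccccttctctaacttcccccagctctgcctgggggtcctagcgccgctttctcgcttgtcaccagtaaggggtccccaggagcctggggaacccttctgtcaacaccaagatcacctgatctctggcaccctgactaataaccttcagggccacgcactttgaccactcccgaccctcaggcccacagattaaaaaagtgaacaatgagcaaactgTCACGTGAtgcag
RefSeq windows were found for 24 of the 33 genes (31 windows), and TCACGTGA, which reads the same on both strands, was present in 5 windows (16.1%), against 0.785% of all 32851 windows of the same length. A match is a description of the sequence and says nothing of binding in these mice.

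Gla (ENSMUSG00000031266, chrX:134588149-134601125), the α-galactosidase, was at 119, 63.3 and 54.3 CPM in HFD PCN and 11.7, 11.3 and 7.75 CPM in Chow, and the groups did not overlap (log2 fold change 2.90, SE 0.33, adjusted p = 0.00237). The aspartic protease Ctsd was at 2929, 1220.3 and 1889 CPM against 680.2, 409.8 and 289 CPM (log2 fold change 2.10, SE 0.42, adjusted p = 0.00941). The carboxypeptidase Ctsa was at 619, 323 and 347 CPM against 147, 123 and 91 CPM (log2 fold change 1.80, SE 0.30, adjusted p = 0.0053). For both, HFD PCN 5 was the highest library and Chow 19 the lowest. Lipa, the lipase that frees cholesterol and fatty acids in lysosomes, was at 1254, 572 and 645 CPM against 135, 89.1 and 66.7 CPM (log2 fold change 3.05, SE 0.39, adjusted p = 0.00264). Atp6v0d2, a proton pump subunit of macrophages and osteoclasts, had the largest rise of the list, from 24.6, 10.8 and 5.25 to 537, 245 and 215 CPM (log2 fold change 4.57, SE 0.59, adjusted p = 0.00271). Tfeb itself rose by less, from 13.9, 14.1 and 16.4 to 37.7, 28.9 and 31.5 CPM (log2 fold change 1.10, SE 0.17, adjusted p = 0.00404). Tfe3, a factor of the same family, was not called (log2 fold change 0.13, SE 0.14, adjusted p = 0.507). Lysosomal genes are expressed in most cells, and 2.17, 1.41 and 1.58 was the mean log2 level of the list in HFD PCN 5, 11 and 27 relative to Chow, beside 2.19, 1.24 and 2.38 for the general macrophage list. The part of macrophage number in the lysosomal rise was not tested. HFD against Chow had 32 members higher (median 2.25), and HFD PCN against HFD 1 lower, the protease gene Ctss (median -0.53).

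Of 26 cytokine and chemokine genes tested, 14 rose and 2 fell. Ccl2, the chemokine that draws monocytes, had the smallest p of all genes: it was at 40.6, 24.6 and 32.8 CPM in HFD PCN and 2.24, 2.08 and 1.94 CPM in Chow (log2 fold change 3.92, SE 0.25, adjusted p = 0.00165). The groups did not overlap, and HFD was inside the range of HFD PCN at 25.4, 33.2 and 29.2 CPM. Ccl3, a chemokine of macrophages, rose from 0.298, 0.48 and 0.456 to 13, 3.49 and 6.66 CPM (log2 fold change 4.19, SE 0.59, adjusted p = 0.00317). Ccl7, a relative of Ccl2, rose from 1.12, 2.96 and 1.82 to 8.9, 8.4 and 15.1 CPM (log2 fold change 2.40, SE 0.40, adjusted p = 0.00507). Neither overlapped with Chow. Il1rn, which blocks the interleukin 1 receptor, rose from 2.83, 0.96 and 1.03 to 196, 59.3 and 39.8 CPM (log2 fold change 5.86, SE 0.74, adjusted p = 0.00264). Il1b itself was not called (log2 fold change 0.18, SE 0.46, adjusted p = 0.79). The genes that fell were Cxcl9, a chemokine for T cells induced by interferon γ (log2 fold change -1.40, SE 0.23, adjusted p = 0.00507), and Nos2, the inducible nitric oxide synthase (log2 fold change -1.08, SE 0.30, adjusted p = 0.0314), both chosen for mention after their values were seen. The number of rises was 9 without Chow 19, 9 without HFD PCN 5 and 8 without HFD PCN 27, and the number of falls 1 without Chow 17 or 19 or without HFD PCN 5 or 27. HFD against Chow gave 15 higher and 2 lower, and HFD PCN against HFD 2 higher (Cxcl1 and Csf1).

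Interferon genes were called at about the share of all genes, and lymphocyte and neutrophil genes were not called. Of 21 interferon-stimulated genes 4 rose, close to the 15.7% of all genes: Oas1a (2.34), Oasl1 (2.86), Oasl2 (1.39) and Ifi204 (1.06 on the log2 scale). The first 3 of these encode sensors of double-stranded RNA or proteins like them, and Oas1a was at 17.5, 9.04 and 13.9 CPM against 3.21, 2.16 and 2.39 CPM (SE 0.31, adjusted p = 0.00271). Of 16 genes of T, NK and B cells none was called, with a median of -0.01. Il2ra, a receptor of regulatory T cells, was at 0.972, 4.7 and 3.36 CPM against 4.1, 3.68 and 2.74 CPM (log2 fold change -0.30, SE 0.50, adjusted p = 0.683), and its direction reversed without HFD PCN 5. Of 5 neutrophil genes none was called, Csf3r, the receptor of their growth factor, being at 12.6, 7.19 and 17.4 CPM against 7.46, 7.92 and 5.02 CPM (log2 fold change 0.81, SE 0.33, adjusted p = 0.101). Without Chow 8 or HFD PCN 27, 1 lymphocyte gene was called higher, and without Chow 8 or HFD PCN 11, 1 neutrophil gene. The lymphocyte list had in HFD against Chow 5 of 19 genes higher and 1 lower, both below the 29.9% of all genes in either direction.

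Genes of cell division were higher in HFD PCN. Of 32 genes, 31 rose and none fell, against 15.7% and 11.6% of all genes, with a median of 2.45, and 29 to 31 rose when any 1 library was left out. Promoters of such genes often hold CCAAT boxes, which the factor NF-Y binds, so 3 are shown with CCAAT, or ATTGG on the other strand, in capitals, as 250 bases before the start, 5′ to 3′ on the strand of the gene, from RefSeq in GRCm38.p6.
Ccnb2 (chr9:70421555-70421804, minus strand): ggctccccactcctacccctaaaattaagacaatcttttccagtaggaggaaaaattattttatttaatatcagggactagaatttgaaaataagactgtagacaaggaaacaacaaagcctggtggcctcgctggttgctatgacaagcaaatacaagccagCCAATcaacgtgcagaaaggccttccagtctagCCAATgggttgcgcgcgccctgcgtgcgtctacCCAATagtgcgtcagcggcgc
Cdk1 (chr10:69352913-69353162, minus strand): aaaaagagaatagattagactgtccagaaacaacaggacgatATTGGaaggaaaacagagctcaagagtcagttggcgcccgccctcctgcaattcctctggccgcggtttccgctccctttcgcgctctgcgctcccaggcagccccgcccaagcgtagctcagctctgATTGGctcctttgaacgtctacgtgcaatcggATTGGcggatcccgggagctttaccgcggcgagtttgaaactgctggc
Top2a (chr11:99024190-99024439, minus strand): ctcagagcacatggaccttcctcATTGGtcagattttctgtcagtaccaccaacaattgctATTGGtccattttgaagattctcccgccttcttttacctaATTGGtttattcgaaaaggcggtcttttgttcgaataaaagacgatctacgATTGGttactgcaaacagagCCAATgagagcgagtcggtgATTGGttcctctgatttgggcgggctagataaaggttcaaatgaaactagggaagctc
Each holds at least 3 copies, and Top2a holds 6. Of the 32 genes 25 had RefSeq windows (26 in all), of which 21 (80.8%) held the motif on either strand, against 33.8% of all 32851 windows.

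Mki67 (ENSMUSG00000031004, chr7:135689784-135716361), a protein of the chromosome surface in dividing cells, was at 269.8, 109.9 and 183 CPM in HFD PCN and 36.7, 26.5 and 22.7 CPM in Chow (log2 fold change 2.67, SE 0.34, adjusted p = 0.00264). HFD PCN 11 was the lowest of its group and still above the highest Chow library, and HFD was at 171, 213 and 185 CPM, inside the range of HFD PCN. Pcna, the clamp of DNA replication, was at 164, 74.4 and 106 CPM against 24.1, 19.4 and 18 CPM (log2 fold change 2.44, SE 0.29, adjusted p = 0.00248). Both genes had HFD PCN 5 highest and HFD PCN 11 lowest, without overlap with Chow. Of the replicative helicase, Mcm5 was at 53.3, 22.2 and 36.5 CPM against 3.28, 5.92 and 4.9 CPM (log2 fold change 2.95, SE 0.37, adjusted p = 0.00264). Mcm6 was at 102, 48.4 and 72 CPM against 14.2, 17.7 and 13.5 CPM (log2 fold change 2.25, SE 0.28, adjusted p = 0.00264). The mitotic kinase Cdk1 was at 29.3, 13.6 and 23.3 CPM against 4.03, 1.68 and 1.94 CPM (log2 fold change 3.05, SE 0.40, adjusted p = 0.00271). The cyclin Ccnb2 was at 20.7, 6.29 and 12.4 CPM against 2.09, 2.4 and 1.71 CPM (log2 fold change 2.62, SE 0.44, adjusted p = 0.00535). The topoisomerase Top2a was at 146, 53.7 and 108 CPM against 21, 9.76 and 10.7 CPM (log2 fold change 2.85, SE 0.42, adjusted p = 0.00349). Mcm7, the 1 member not called, had a log2 fold change of 0.30 (SE 0.20, adjusted p = 0.282). HFD PCN against HFD called none of the list and had a median of 0.06, and HFD against Chow had 31 higher with a median of 2.57. Which cells divide cannot be read from whole tissue.

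**Figure D3:**
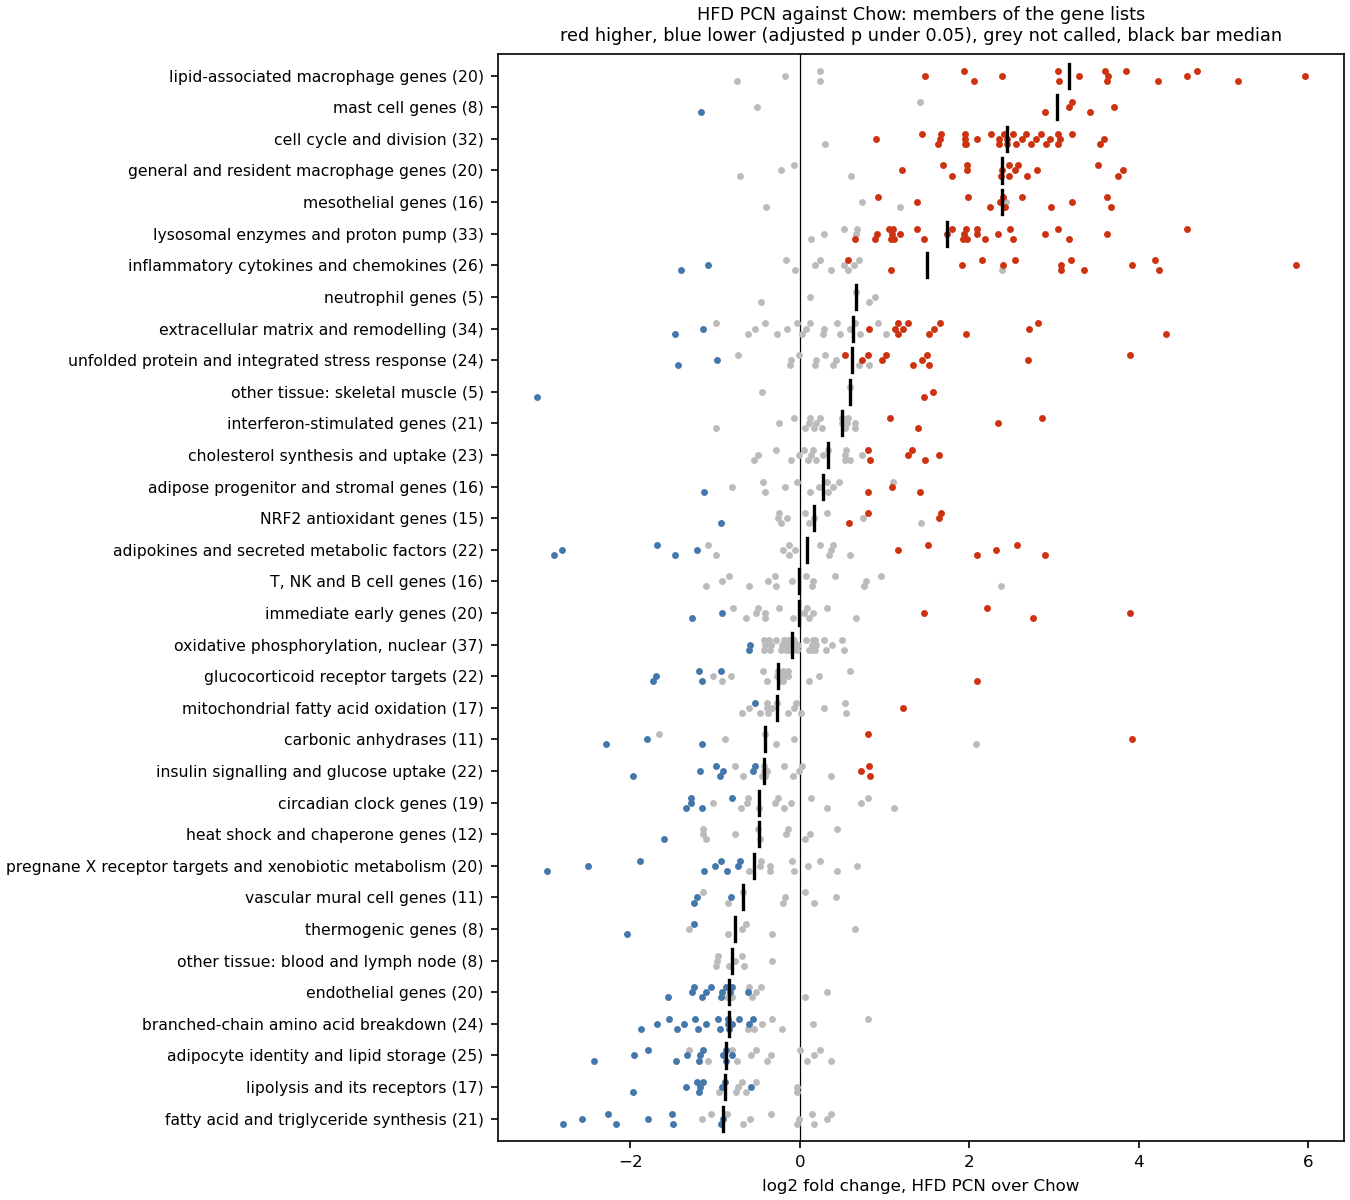
Log2 fold change of HFD PCN over Chow (horizontal axis) of each tested member of the gene lists with at least 5 tested members, named with their number; red members rose, blue fell, grey were not called and the black bar is the median. The 31 of 32 cell cycle genes and 28 of 33 lysosomal genes in red stand to the right, and the 17 of 24 branched-chain amino acid genes in blue to the left.

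Matrix genes rose for 13 of 34 and fell for 2. Timp1, an inhibitor of matrix proteases, was at 35.5, 14.3 and 35.7 CPM in HFD PCN and 1.71, 1.04 and 1.37 CPM in Chow (log2 fold change 4.32, SE 0.42, adjusted p = 0.00237). The protease Mmp2 was at 154, 119 and 166 CPM against 45.8, 35.3 and 28.5 CPM (log2 fold change 1.96, SE 0.21, adjusted p = 0.00237). Its membrane-bound activator Mmp14 was at 102, 87.6 and 99.2 CPM against 43.8, 26.6 and 26.8 CPM (log2 fold change 1.53, SE 0.21, adjusted p = 0.00302). Loxl1, a crosslinking oxidase, was at 106, 94.3 and 130.2 CPM against 33.9, 41.2 and 26.9 CPM (log2 fold change 1.65, SE 0.20, adjusted p = 0.0026). All 4 were without overlap between the groups. Of the fibrillar collagens, Col1a1, Col1a2 and Col3a1 rose by 1.16, 1.15 and 1.22 on the log2 scale, while the network collagens Col6a1, Col6a2 and Col6a3 were not called (0.28, 0.07 and 0.28). In HFD Mmp2 was at 272, 297 and 232 CPM and Mmp14 at 156, 178 and 159 CPM, above the HFD PCN libraries. HFD PCN against HFD had 7 members lower (Col5a2, Col6a3, Loxl2, Postn, Lum, Mmp2 and Mmp14) and 1 higher, against 1.35% and 2.97% of all genes. HFD against Chow had 19 of 34 higher and 4 lower, against 29.9% of all genes in each direction, so the falls are below that share. The falls against Chow, Thbs1 and Col15a1, were not called without Chow 17, HFD PCN 5 or HFD PCN 27, and 1 of them was not without Chow 8 or 19, whereas 4 members fell without HFD PCN 11.

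Of 16 progenitor and stromal genes, 3 rose and 1 fell, which is near the 15.7% of all genes for rises and below the 11.6% for falls. Rises numbered 5 without Chow 8, 1 without Chow 19 and 1 without HFD PCN 27. Pdgfra, the receptor that marks adipose progenitors, was at 192, 211 and 254 CPM against 123, 104 and 73.5 CPM (log2 fold change 1.09, SE 0.21, adjusted p = 0.00858), and HFD at 216, 238 and 201 CPM. Ebf2, a factor of committed preadipocytes and thermogenic fat, fell from 38.9, 58.5 and 62.4 to 19, 31.3 and 24.9 CPM (log2 fold change -1.14, SE 0.24, adjusted p = 0.0108). Dpp4 and Pi16, which mark early progenitors, were not called (0.47 and 0.12 on the log2 scale).

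Endothelial genes were lower in HFD PCN than in Chow for 12 of 20, none was higher, and the median was -0.84. Kdr, the main receptor for vascular endothelial growth factor, was at 83, 105 and 98 CPM in HFD PCN and 222, 193 and 200.1 CPM in Chow (log2 fold change -1.15, SE 0.16, adjusted p = 0.00288). HFD was lower still at 47.4, 40.9 and 37.7 CPM, so HFD PCN lay between Chow and HFD without overlap with either. Nos3, the endothelial nitric oxide synthase, fell from 69.9, 70.8 and 131 to 24.3, 40.9 and 30.1 CPM (log2 fold change -1.56, SE 0.29, adjusted p = 0.00717), with 32.3% of its exon bases shared with another gene. Robo4, a guidance receptor of vessels, fell from 124, 131 and 145 to 33.7, 80.1 and 60.6 CPM (log2 fold change -1.25, SE 0.28, adjusted p = 0.0133). Flt4, a receptor of lymphatic vessels, fell from 25.1, 28.8 and 35.5 to 9.8, 17.3 and 15.8 CPM (log2 fold change -1.11, SE 0.24, adjusted p = 0.0116). Both calls were lost in alternatives (adjusted p = 0.131 with all 12 libraries in 1 fit and 0.054 without Chow 19 for Robo4, and adjusted p = 0.164 with all 12 libraries in 1 fit and 0.0515 without Chow 19 for Flt4). Kdr was not called with all 12 libraries in 1 fit (adjusted p = 0.115 with all 12 libraries in 1 fit). The number of falls was 1 with all 12 libraries in 1 fit, 6 without Chow 17, 3 without Chow 19, 5 without HFD PCN 5 and 6 without HFD PCN 27. HFD against Chow had all 20 lower, with a median of -1.67, and HFD PCN against HFD 7 higher, with a median of 0.80. In HFD Vehicle, Kdr was at 61, 227 and 44.5 CPM, where HFD Vehicle 50 is the high value.

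Of 11 genes of pericytes and vascular smooth muscle 3 fell and none rose. They included the potassium channel subunits Abcc9, from 150.4, 149 and 120.3 to 67.9, 88.9 and 89.8 CPM (log2 fold change -0.81, SE 0.17, adjusted p = 0.0105), and Kcnj8. Kcnj8 fell from 21.2, 15 and 16.5 to 5.8, 6.55 and 10.6 CPM (log2 fold change -1.25, SE 0.26, adjusted p = 0.0106), and the third, the pericyte gene Rgs5, from 419, 280.5 and 298 to 87.7, 195 and 162 CPM (log2 fold change -1.21, SE 0.29, adjusted p = 0.0183). Rgs5 lost its call without Chow 19 or HFD PCN 27 (adjusted p = 0.0524 without Chow 19 and 0.0504 without HFD PCN 27), and Abcc9 with all 12 libraries in 1 fit (adjusted p = 0.0971 with all 12 libraries in 1 fit). Between HFD and Chow 6 were lower, and in HFD PCN against HFD 2 higher (Notch3 and Abcc9).

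Genes of mesothelium, the cell layer that covers gonadal fat, were higher in HFD PCN than in Chow for 12 of 16, with a median of 2.38. HFD against Chow had none higher, 1 lower and a median of 0.30, and HFD PCN against HFD 3 higher (Krt8, Upk1b and Nkain4) with a median of 1.90. Upk1b, a membrane protein of mesothelium and urothelium, was at 12.4, 5.92 and 6.1 CPM in HFD PCN, 1.64, 0.64 and 0.114 CPM in Chow and 1.92, 2.03 and 0.526 CPM in HFD (log2 fold change 3.21, SE 0.61, adjusted p = 0.00765 against Chow). The keratin Krt19 was at 9.15, 4.12 and 4.54 CPM against 0.895, 0.16 and 0.228 CPM in Chow (log2 fold change 3.67, SE 0.60, adjusted p = 0.0048). Gpm6a, a membrane glycoprotein, was at 17, 8.99 and 5.32 CPM against 1.49, 0.24 and 0.684 CPM (log2 fold change 3.63, SE 0.62, adjusted p = 0.00552). All of these are low levels, and HFD PCN lay above Chow in each library. Lrrn4 was at 19.3, 10.8 and 8.4 CPM against 3.06, 2.16 and 1.71 CPM (log2 fold change 2.42, SE 0.38, adjusted p = 0.00416), and HFD at 3.51, 2.73 and 0.467 CPM. Msln, the surface protein mesothelin, was at 15.3, 15 and 7.17 CPM against 4.1, 4 and 0.798 CPM (log2 fold change 1.99, SE 0.50, adjusted p = 0.0214). Slpi, a secreted protease inhibitor, was at 8.93, 7.93 and 11.1 CPM against 3.58, 0.56 and 0 CPM (log2 fold change 2.62, SE 0.78, adjusted p = 0.0376). The call of Slpi was lost in 8 of 17 alternatives (among them adjusted p = 0.0959 with all 12 libraries in 1 fit, 0.114 without Chow 17, 0.0615 without Chow 19, 0.0867 without HFD PCN 5 and 0.0971 without HFD PCN 27). Within groups the order of the libraries differed between genes. Chow 19 was the lowest of its group for Upk1b and Lrrn4 and Chow 17 for Krt19 and Gpm6a. The mean log2 level of the list relative to Chow was 0.46, 0.02 and -0.48 in Chow, 0.62, 0.56 and -0.64 in HFD, 1.95, 1.58 and 1.26 in HFD PCN and 0.08, 1.41 and -0.45 in HFD Vehicle. HFD Vehicle 50 was thus level with the HFD PCN libraries. How much mesothelium each sample took along is not given in the labels and its part was not tested. With all 12 libraries in 1 fit 5 members were called higher.

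**Figure D4:**
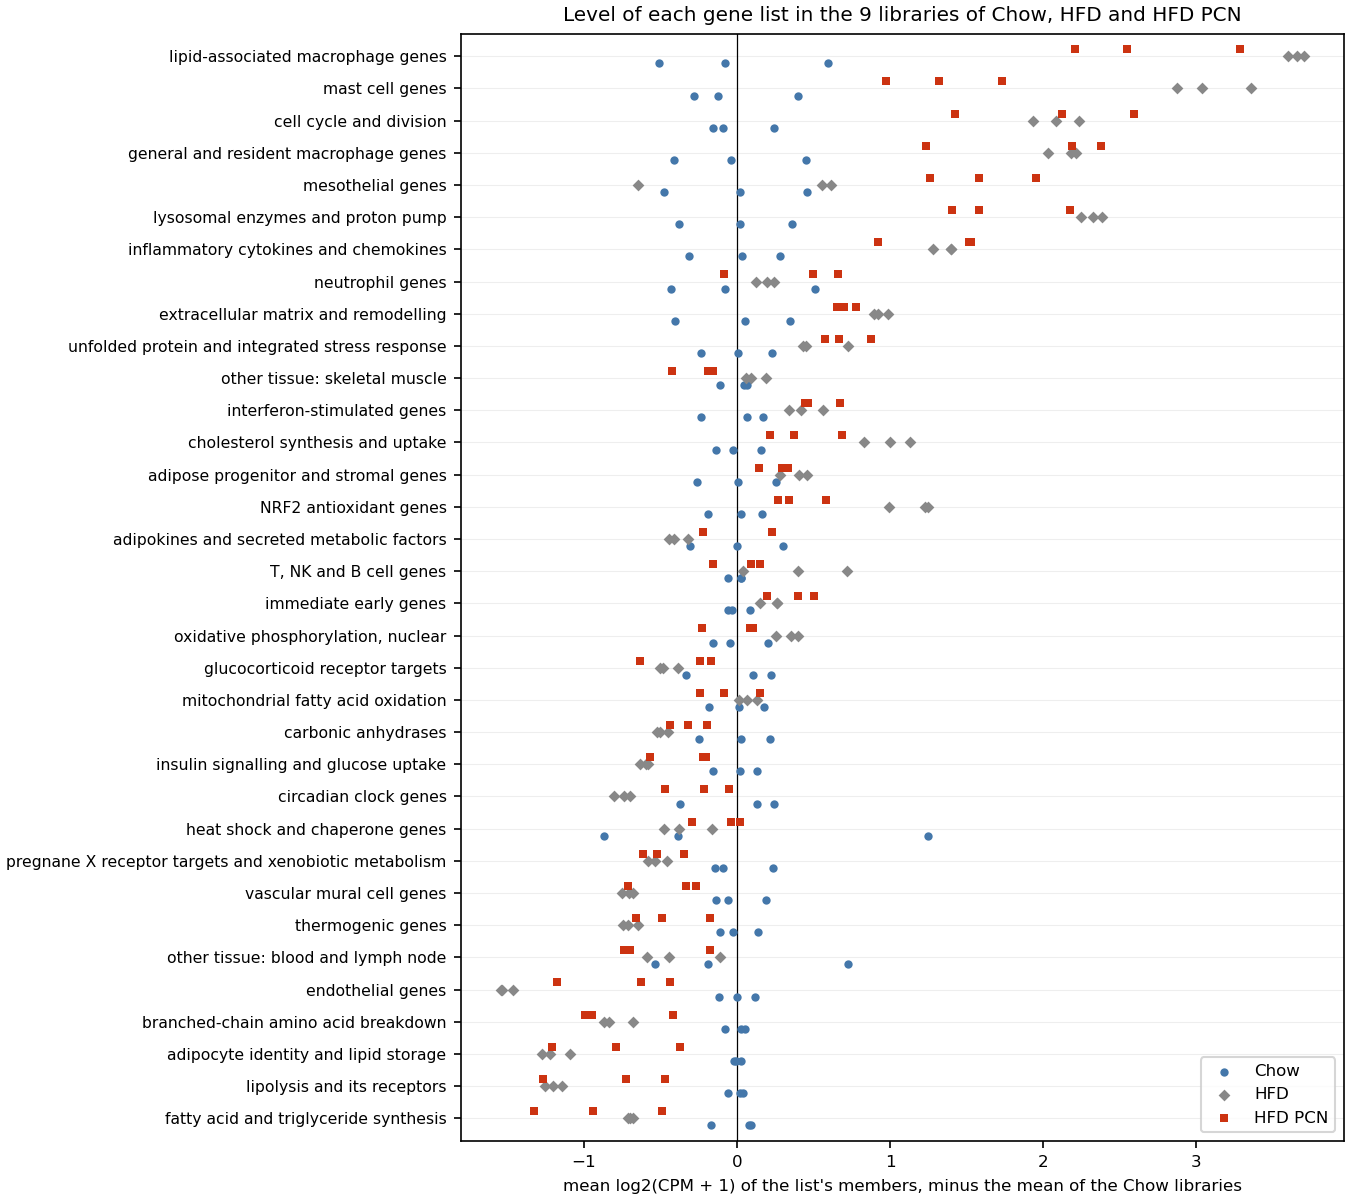
Mean log2(CPM + 1) of each list's members in each library, minus the mean of the Chow libraries (horizontal axis), for Chow (blue circles), HFD (grey diamonds) and HFD PCN (red squares). HFD PCN lies apart from Chow for macrophage, lysosomal and cell cycle genes, and short of HFD for lysosomal and lipid-associated macrophage genes. HFD PCN 27 lies above HFD for general macrophage genes and HFD PCN 5 for cell cycle genes. The HFD PCN libraries lie above both groups for mesothelial genes, and between the groups for mast cell and endothelial genes.

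Mast cell genes rose for 5 of 8 and 1 fell. Cpa3, the carboxypeptidase of mast cell granules, was at 16.8, 5.18 and 8.46 CPM in HFD PCN and 1.71, 0.48 and 0.456 CPM in Chow (log2 fold change 3.42, SE 0.60, adjusted p = 0.00614). The granule protease Cma1 was at 14, 5.6 and 8.79 CPM against 1.86, 0.72 and 0.228 CPM (log2 fold change 3.22, SE 0.58, adjusted p = 0.00649). HFD stood far above both groups, at 77.9, 57.4 and 65.5 CPM for Cpa3 and 76.8, 54.3 and 64.7 CPM for Cma1. Fcer1a, the IgE receptor chain, was at 3.13, 1.22 and 1.51 CPM against 0.298, 0.08 and 0 CPM in Chow and 15, 9.08 and 11.4 CPM in HFD. HFD PCN thus lay between Chow and HFD, without overlap with either for these 3 genes. HFD PCN against HFD had 6 of 10 lower and a median of -2.41, and HFD against Chow 8 higher. HFD Vehicle was at 33.7, 1.1 and 13.1 CPM for Cpa3, so HFD Vehicle 23 and 55, without PCN, were below HFD too. Gata2, the member that fell against Chow (log2 fold change -1.17, SE 0.36, adjusted p = 0.0417), is a factor that endothelial cells also express, and it was not called without Chow 17 or 19 or HFD PCN 5 or 27. The number of rises was 2 with all 12 libraries in 1 fit, 3 without Chow 19 and 3 without HFD PCN 5.

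Of 24 genes of the unfolded protein and integrated stress responses 11 rose and 2 fell. Sdf2l1, a partner of the chaperone BiP, was at 38.2, 37.8 and 57.3 CPM in HFD PCN and 8.13, 7.36 and 4.22 CPM in Chow (log2 fold change 2.69, SE 0.27, adjusted p = 0.00237). The stress factor Atf3 was at 243, 143 and 97.2 CPM against 11.4, 16 and 3.53 CPM (log2 fold change 3.90, SE 0.53, adjusted p = 0.00292). The secreted protein Manf was at 61, 64.3 and 97.9 CPM against 26.2, 29.8 and 20.4 CPM (SE 0.23, adjusted p = 0.00377), which was not called with all 12 libraries in 1 fit (adjusted p = 0.0533 with all 12 libraries in 1 fit). Sesn2, a sensor of leucine, fell from 83.1, 77.8 and 88.8 to 26.2, 40.4 and 28.3 CPM (log2 fold change -1.44, SE 0.18, adjusted p = 0.00264). The number of rises was 5 with all 12 libraries in 1 fit, 6 without Chow 19 and 7 without HFD PCN 27. None was called between HFD PCN and HFD. Of 20 immediate early genes 4 rose and 2 fell, near the 15.7% and 11.6% of all genes. Junb rose from 13.3, 14.2 and 14 to 41.6, 37.9 and 39.4 CPM (log2 fold change 1.47, SE 0.14, adjusted p = 0.00237). Egr2 rose from 2.98, 2.24 and 2.51 to 22.3, 19.6 and 12 CPM (log2 fold change 2.75, SE 0.29, adjusted p = 0.00237). Nr4a2 and Nr4a3 were the genes that fell. Neither fall was called without Chow 17, Chow 19 or HFD PCN 5, 1 was without HFD PCN 11 or 27, and 3 members fell without Chow 8. Of 12 heat shock genes 1 fell, Hspb8, and its call was lost on leaving out a library (adjusted p = 0.105 with all 12 libraries in 1 fit, 0.0501 without Chow 17, 0.0561 without HFD PCN 5 and 0.0536 without HFD PCN 27). The list's level was -0.38, 1.25 and -0.87 in Chow 8, 17 and 19, so Chow 17 was far above the other Chow libraries, and without it 3 members were called higher.

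Genes of the NRF2 antioxidant response rose for 4 of 15 and 1 fell, with 2 rises under upper quartile scaling. Srxn1, which repairs oxidised peroxiredoxins, was at 99.2, 59.3 and 49.4 CPM in HFD PCN, 22.5, 20.6 and 20.8 CPM in Chow and 184, 141 and 194 CPM in HFD, so HFD PCN lay between the other groups without overlap. Its rise against Chow was a log2 fold change of 1.66 (SE 0.26, adjusted p = 0.00415). Txnrd1, the thioredoxin reductase, was at 146, 99.9 and 96.8, 66, 69.6 and 55.5 and 225, 182 and 231 CPM in the same groups (log2 fold change 0.80, SE 0.20, adjusted p = 0.021 against Chow) and lost its call without some libraries (adjusted p = 0.0518 without Chow 17, 0.0725 without Chow 19 and 0.0546 without HFD PCN 5). Me1, the malic enzyme that is also a lipogenic gene, fell from 233, 169 and 191 to 76.4, 152 and 92.9 CPM (log2 fold change -0.93, SE 0.26, adjusted p = 0.0286), a call lost without Chow 8, 17 or 19 or HFD PCN 5 or 27. The number of rises was 2 with all 12 libraries in 1 fit, 1 without Chow 19, 1 without HFD PCN 5 and 2 without HFD PCN 27. Between HFD and Chow 11 were higher (median 0.79), and in HFD PCN against HFD 6 were lower (median -0.90). HFD Vehicle, without PCN, was under HFD too. The mean log2 level of the list relative to Chow was 0.49, -0.01 and 0.58 in HFD Vehicle and 1.23, 0.99 and 1.25 in HFD.

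Cholesterol synthesis and uptake had the same order of groups. Of 23 genes 6 rose and none fell, with a median of 0.33, against 16 higher and a median of 1.04 in HFD against Chow. Dhcr7, the last enzyme of cholesterol synthesis, was at 11.1, 12.7 and 12.8 CPM in HFD PCN, 4.7, 3.92 and 2.62 CPM in Chow and 17.2, 20.6 and 19.2 CPM in HFD (log2 fold change 1.64, SE 0.24, adjusted p = 0.00363 against Chow). Msmo1, a sterol demethylase, was at 42.9, 37.4 and 23.3 CPM, 13.5, 11.8 and 10.7 CPM and 51.1, 62.6 and 69.6 CPM in the same groups (log2 fold change 1.48, SE 0.24, adjusted p = 0.00465 against Chow). Between HFD PCN and HFD, 6 were lower in HFD PCN (among them Lss, Nsdhl, Ebp, Dhcr7 and Insig1), and the median was -0.66. The HFD Vehicle libraries, injected without PCN, also lay below HFD. The mean log2 level of the list relative to Chow was 0.39, -0.02 and 0.59 in HFD Vehicle. It was 0.37, 0.69 and 0.22 in HFD PCN and at least 0.83 in HFD. Dhcr7 was at 13.8, 7.04 and 13.7 CPM in HFD Vehicle, so its lower level was seen with vehicle too. The number of rises against Chow was 3 without Chow 19 and 3 without HFD PCN 5.

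The PXR gene and its best known target were near 0. Nr1i2 itself was at 0.036, 0.0529 and 0 CPM in HFD PCN and 0, 0 and 0.114 CPM in Chow and was not tested. Cyp3a11 had 22 counts over the 3 HFD PCN libraries (0.468, 0.476 and 0 CPM) and 0 over the Chow libraries, at least 3.94-fold higher with a floor of 3 counts for the whole group. HFD had 3 counts, and HFD Vehicle was at 0, 0.0914 and 0 CPM. No count was seen in HFD PCN 27, and such floors cover counting error only. Of 20 tested genes for PXR targets and xenobiotic metabolism none rose and 9 fell, with a median of -0.54. Gsta4 (ENSMUSG00000032348, chr9:78182774-78209349), a glutathione transferase for lipid aldehydes, fell from 8.2, 7.12 and 9.81 to 1.26, 1.32 and 0.616 CPM (log2 fold change -2.99, SE 0.34, adjusted p = 0.00237) and was at 1.41, 0.631 and 0.759 CPM in HFD. Cyp2b10, a target shared with the receptor CAR, fell from 1.79, 1.2 and 1.48 to 0.216, 0.37 and 0.224 CPM (log2 fold change -2.50, SE 0.41, adjusted p = 0.00475), with HFD at 0.29, 0.456 and 0.175 CPM. Aldh1a7, an aldehyde dehydrogenase, fell from 129.6, 56.2 and 58.8 to 21.2, 31.9 and 15.2 CPM (log2 fold change -1.88, SE 0.37, adjusted p = 0.00855), while HFD was at 82.3, 67.6 and 70.2 CPM and HFD Vehicle at 47.7, 32.3 and 37 CPM. Aldh1a7 was thus lowest in HFD PCN, whereas Gsta4 and Cyp2b10 overlapped between HFD PCN and HFD. Alas1, the first enzyme of haem synthesis, fell from 299.6, 323 and 312 to 148, 204 and 129 CPM (SE 0.20, adjusted p = 0.00935). The number of falls was 5 with all 12 libraries in 1 fit, 5 without Chow 19 and 5 without HFD PCN 27. In HFD against Chow 12 were lower and 2 higher, and in HFD PCN against HFD 1 was higher (Aldh1a1) and 1 lower (Aldh1a7).

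Of 22 targets of the glucocorticoid receptor 5 fell and 1 rose (Lcn2). Fkbp5, a chaperone that curbs the receptor, fell from 425, 389 and 576 to 206, 237 and 187 CPM (log2 fold change -1.19, SE 0.21, adjusted p = 0.00642). The factor Zbtb16 fell from 494, 720.3 and 895 to 133, 313 and 214 CPM (log2 fold change -1.73, SE 0.35, adjusted p = 0.00911) and was not called with all 12 libraries in 1 fit (adjusted p = 0.0617 with all 12 libraries in 1 fit). The receptor gene Nr3c1 was level at 185, 208 and 203 CPM and 190.4, 243 and 201 CPM (log2 fold change -0.13, SE 0.17, adjusted p = 0.57). The number of falls was 2 with all 12 libraries in 1 fit, 2 without Chow 19, 3 without HFD PCN 5 and 2 without HFD PCN 27, and Lcn2 was not called without Chow 17 or 19 or HFD PCN 27. Of 19 clock genes 5 fell and none rose, but without Chow 19 there were 2 rises. Arntl, which encodes BMAL1, was at 9.54, 12.5 and 11 CPM in HFD PCN, 29.2, 27.7 and 14.4 CPM in Chow and 35.2, 27.6 and 27.1 CPM in HFD. Npas2, a partner of BMAL1, was at 2.92, 4.76 and 1.85, 9.39, 7.52 and 5.59 and 9.99, 8.62 and 7.94 CPM. Against Chow, Arntl had a log2 fold change of -1.16 (SE 0.26, adjusted p = 0.0147) and Npas2 a log2 fold change of -1.29 (SE 0.36, adjusted p = 0.0311), and both lost the call on leaving out libraries (adjusted p = 0.0578 without Chow 17 and 0.0562 without HFD PCN 5 for Arntl, and adjusted p = 0.0755 without Chow 8, 0.0795 without Chow 17, 0.0515 without Chow 19, 0.097 without HFD PCN 5 and 0.084 without HFD PCN 27 for Npas2). The number of clock falls was 3 with all 12 libraries in 1 fit, 1 without Chow 17, 3 without Chow 19, 1 without HFD PCN 5 and 2 without HFD PCN 27. In HFD PCN against HFD 6 clock genes were higher and 2 lower.

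Of 22 adipokines and secreted factors 6 rose and 5 fell. Rbp4 (ENSMUSG00000024990, chr19:38116620-38125321), the retinol carrier of blood, was at 11.1, 56.6 and 25.7 CPM in HFD PCN and 269, 225 and 176 CPM in Chow (log2 fold change -2.90, SE 0.51, adjusted p = 0.0059), with HFD at 27.7, 24.1 and 26.3 CPM. Nrg4, a secreted growth factor of adipocytes, fell from 101, 168 and 239.6 to 17.3, 34.5 and 23.6 CPM (log2 fold change -2.81, SE 0.36, adjusted p = 0.00264), with HFD at 12.3, 9.96 and 9.05 CPM. Metrnl, a secreted factor of macrophages and adipocytes, rose from 18.3, 12.3 and 7.87 to 123, 73.8 and 101 CPM (log2 fold change 2.90, SE 0.31, adjusted p = 0.00237). Pltp, a phospholipid transfer protein, rose from 182, 133 and 79 to 754, 494 and 767 CPM (log2 fold change 2.32, SE 0.33, adjusted p = 0.00318), with 19.3% of its exon bases shared with another gene. The number of rises was 3 without Chow 17, 2 without Chow 19 and 3 without HFD PCN 5, and the number of falls 2 with all 12 libraries in 1 fit, 3 without Chow 17 and 3 without HFD PCN 27.

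Of the tissues that a dissection could bring along, 1 gene of muscle stood out. Blood genes were not called (8 tested), and Crisp1 and Rnase10 of epididymis reached 0.298 CPM at most in the 6 libraries. Of pancreas, Cpa1 reached 0.149 CPM at most, and the 1 gene tested, Cela1, was not called (log2 fold change 0.94). Without Chow 8, Cela1 was called higher (log2 fold change 1.77, adjusted p = 0.0197 without Chow 8). The pancreas list summed to 3.19 to 20.4 CPM in Chow and 16 to 27.5 CPM in HFD PCN. Of 5 muscle genes tested, Acta1, the actin of skeletal muscle, fell from 67.5, 63.6 and 53.6 to 7.35, 4.92 and 9.85 CPM (log2 fold change -3.11, SE 0.25, adjusted p = 0.00227), while Pvalb and Tnni2 rose at low levels with calls that were lost in alternatives (adjusted p = 0.0911 with all 12 libraries in 1 fit, 0.128 without Chow 17, 0.121 without Chow 19, 0.138 without HFD PCN 5 and 0.103 without HFD PCN 27 for Pvalb, and adjusted p = 0.081 without Chow 8, 0.099 without Chow 17, 0.13 without Chow 19 and 0.0592 without HFD PCN 27 for Tnni2). Ckm, the creatine kinase of muscle, was at or near 0 in all 6 libraries and was not tested. Without Chow 17, 3 blood genes were called lower.

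The 10 largest rises among genes without overlap between the groups were led by Hmga2. Hmga2, a chromatin protein of embryonic and proliferating cells, had 933 counts over HFD PCN and 2 over Chow, a ratio of CPM of 251 (95% counting interval 69.2 to 2073). It was at 24.9, 5.81 and 7.39 CPM in HFD PCN and 16.2, 19.9 and 17.2 CPM in HFD. Fat3, a giant cadherin, was at 125, 35.7 and 40.4 CPM against 0.82, 0.56 and 0.798 CPM (log2 fold change 6.49, SE 0.64, adjusted p = 0.00237), with HFD higher still at 202, 247 and 219.6 CPM. Nptx1, a pentraxin of neurons, was at 30.5, 8.51 and 6.1 CPM against 0, 0.48 and 0.114 CPM (log2 fold change 6.14, SE 0.96, adjusted p = 0.00421). Prss46, a serine protease, had 224 counts against 1, and Serpinb1c, a protease inhibitor, 228 against 1, ratios of 120.4 (21.4 to 4775) and 123 (21.8 to 4859.7). Npy, the neuropeptide Y gene, and Cemip, a hyaluronan-degrading protein, had ratios of 126 (22.4 to 5008) and 83 (22.8 to 689), with calls lost on leaving out Chow libraries (adjusted p = 0.052 without Chow 17 for Npy, and adjusted p = 0.055 without Chow 17 and 0.0549 without Chow 19 for Cemip). These ratios pool HFD PCN libraries that differed. Prss46 was at 5.76, 2.75 and 0.672 CPM, Serpinb1c at 5.98, 2.06 and 1.29, Npy at 6.81, 1.64 and 0.84 and Cemip at 2.16, 1.22 and 12.7 CPM. The antibody segment Igkv14-126 was at 1.4, 32.2 and 6.78 CPM against 0.149, 0.08 and 0 CPM, so HFD PCN 11 held the most, and it is 1 of a family of like segments among which counting can be uncertain. Leaving out Chow 19 ended its call (adjusted p = 0.0507 without Chow 19).

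The smallest p-values after Ccl2 belonged to Kcnn4, a calcium-gated potassium channel of immune cells, at 62, 49.9 and 40.1 CPM against 5.59, 4.08 and 3.31 CPM (log2 fold change 3.49, SE 0.25, adjusted p = 0.00165), and to B4galt5. B4galt5, a galactosyltransferase of glycolipids, was at 96.5, 75.4 and 99.5 CPM against 18.5, 17.1 and 15.2 CPM (log2 fold change 2.37, SE 0.17, adjusted p = 0.00165). Vwa3a fell from 40.0, 47.4 and 58.4 to 8.43, 9.83 and 7.5 CPM (log2 fold change -2.54, SE 0.20, adjusted p = 0.00227). Tmem119, known from microglia and bone-forming cells, rose from 6.56, 6.72 and 4.1 to 38.2, 34.5 and 37.3 CPM (log2 fold change 2.60, SE 0.21, adjusted p = 0.00227). These genes were chosen by their p, which itself depends on the spread within the groups.

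Among the largest falls, Prss55, a serine protease known from testis, had no count in HFD PCN and 77 counts over the Chow libraries, at least 47.8-fold lower with a floor of 3 counts for the whole group. Serpina3b, a protease inhibitor, had 2 counts against 143, lower by a ratio of 133 (36.2 to 1109). Chow 8 held 113 of the 143 counts, and without Chow 8 its log2 fold change was -5.22 in place of -6.64. Fam13a, a gene of adipocytes tied to fat distribution, was the most abundant of the 10 largest falls, at 27, 47 and 45.3 CPM in HFD PCN and 145, 645 and 645 CPM in Chow (log2 fold change -3.65, SE 0.55, adjusted p = 0.00382), and HFD was at 25, 26.9 and 24.4 CPM. Acsm3, an acyl-CoA synthetase of mitochondria, fell from 9.1, 16 and 25.1 to 0.612, 0.74 and 0.504 CPM (log2 fold change -4.78, SE 0.43, adjusted p = 0.00237), with 39.7% of its exon bases shared with another gene. The highest HFD PCN library was far below the lowest Chow library for both genes. Disp2, a relative of the hedgehog exporter, fell from 18.1, 23.4 and 86.9 to 2.02, 3.65 and 4.48 CPM (log2 fold change -3.72, SE 0.63, adjusted p = 0.00535), with Chow 19 far above the other Chow libraries. Cacna2d3, a calcium channel subunit, fell from 2.76, 4.16 and 4.22 to 0.252, 0.264 and 0.224 CPM (log2 fold change -3.91, SE 0.37, adjusted p = 0.00237). Cyp2f2, a cytochrome P450 known from lung, fell from 2.83, 4.72 and 3.42 to 0.072, 0.211 and 0.168 CPM (log2 fold change -4.66, SE 0.46, adjusted p = 0.00237), with 13.5% of its exon bases overlapped. Pkp1, a plaque protein of desmosomes, fell from 3.8, 1.6 and 2.17 to 0.072, 0.211 and 0.112 CPM (log2 fold change -4.29, SE 0.54, adjusted p = 0.00264). Dnase1l3, a nuclease secreted by myeloid cells, fell from 1.86, 1.6 and 2.05 to 0.036, 0.264 and 0.224 CPM (log2 fold change -3.49, SE 0.55, adjusted p = 0.00418). The tenth, Ripk4, a kinase of epithelia, was at 0.432, 3.91 and 0.392 CPM against 12.6, 14.2 and 24.1 CPM and lost its call in alternatives (adjusted p = 0.0731 with all 12 libraries in 1 fit and 0.0512 without Chow 19).

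**Figure D5:**
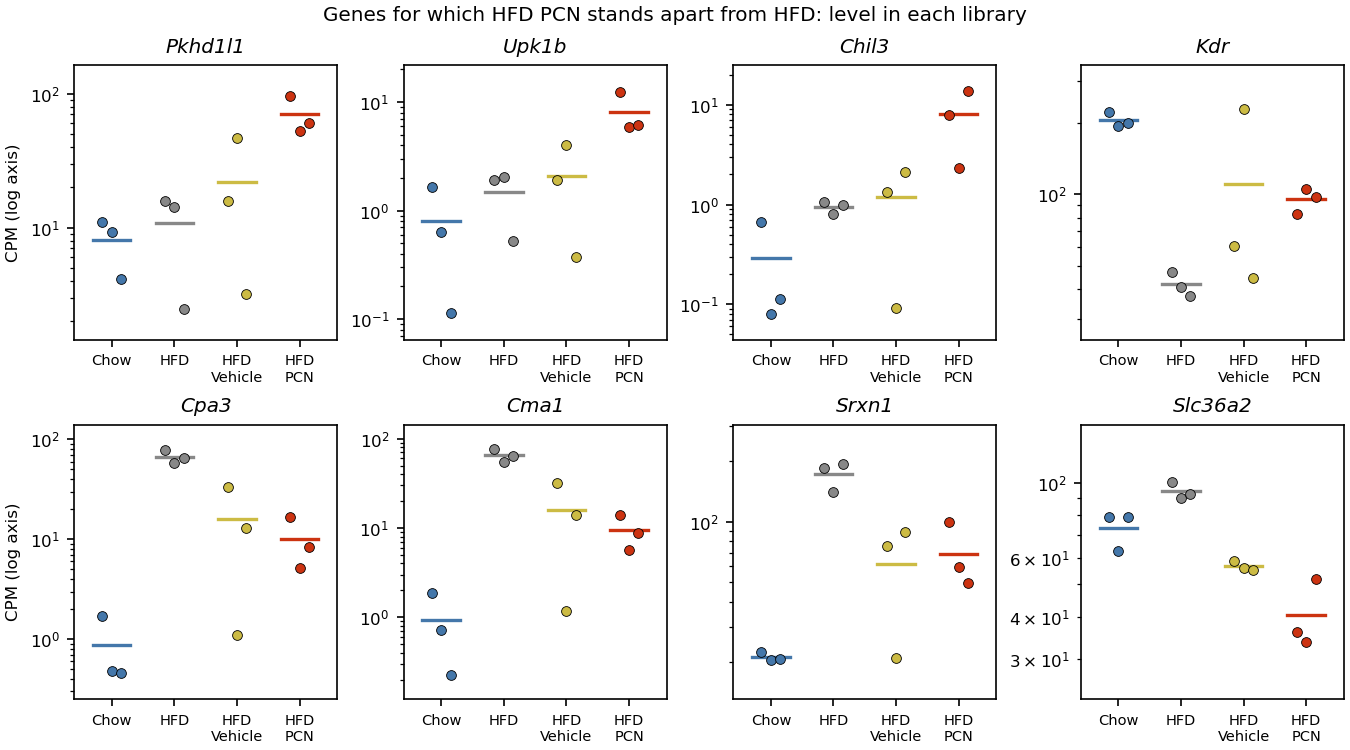
CPM on a log axis of 8 genes for which HFD PCN stands apart from HFD, in each of the 12 libraries by group; points are libraries and bars group means. HFD PCN is above HFD and Chow for Pkhd1l1, Upk1b and Chil3, between them for Kdr, Cpa3, Cma1 and Srxn1, and below both for Slc36a2; the lone point near Chow in HFD Vehicle for Cpa3, Cma1 and Srxn1 is library 50.

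Genes for which HFD PCN differed from both Chow and HFD in the same direction were chosen by those values, so they are described without a test. Chil3, the chitinase-like protein of alternatively activated macrophages, was at 7.96, 2.33 and 13.7 CPM in HFD PCN, 0.671, 0.08 and 0.114 CPM in Chow, 1.05, 0.806 and 0.993 CPM in HFD and 1.32, 0.0914 and 2.13 CPM in HFD Vehicle. Pkhd1l1, a large receptor-like protein, was at 96.7, 52.9 and 60.5 CPM in HFD PCN against 11, 9.28 and 4.1 CPM in Chow and 15.8, 14.3 and 2.45 CPM in HFD. HFD Vehicle was at 15.8, 47 and 3.2 CPM for it, and the mesothelial Upk1b at 1.9, 4.02 and 0.373 CPM, so HFD Vehicle 50 was the highest of its group for both. The keratin Krt8 was at 5.44, 3.01 and 3.7 CPM against 1.04, 0.24 and 0.114 CPM and 0.579, 0.526 and 0 CPM. The polarity protein Crb2 was at 6.95, 1.59 and 5.94 CPM against 1.04, 0.56 and 0 CPM and 0.253, 0.841 and 0.0584 CPM. Krt8 and Crb2 were low in every library of Chow and HFD. Nap1l5 was at 2.74, 2.11 and 2.35 CPM against 1.04, 0.72 and 0.456 CPM in Chow and 0.652, 0.526 and 0.526 CPM in HFD. Ildr2 was at 41.2, 20.1 and 33.1 CPM against 14.6, 8.56 and 5.02 CPM and 7.13, 10.8 and 5.55 CPM, with 11% of its exon bases overlapped. Below both groups were Slc36a2, an amino acid transporter of fat, at 36.2, 33.9 and 51.9 CPM against 79.1, 62.7 and 79.1 CPM in Chow and 101, 90.4 and 92.9 CPM in HFD, and Acss2. Acss2, which makes acetyl-CoA from acetate, was at 17.8, 37.2 and 23.7 CPM against 62.5, 36.2 and 44.6 CPM and 56.1, 60.7 and 55.6 CPM. HFD PCN 11 overlapped with Chow 17 for Acss2, and the 2 groups did not overlap for Slc36a2. Cox8b, a muscle and thermogenic fat subunit of cytochrome oxidase, was at 0.432, 0.899 and 0.616 CPM against 4.4, 1.28 and 1.94 CPM and 2.43, 1.65 and 2.34 CPM. The glutathione transferase Mgst2 was at 3.06, 3.17 and 4.09 CPM against 5.82, 7.04 and 9.24 CPM and 9.45, 6.55 and 7.42 CPM. HFD Vehicle, which had the injection without PCN, was at 58.8, 56 and 55.3 CPM for Slc36a2 and 6.21, 3.02 and 2.19 CPM for Mgst2, so it too had values under those of HFD. For Cox8b it was at 1.09, 0.548 and 0.8 CPM, below each HFD library and overlapping with HFD PCN.

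Other genes stood in HFD PCN near the level of Chow while HFD lay apart, again chosen by these values and given without a test. Cacna1e, a calcium channel, was at 156, 275 and 208 CPM in HFD PCN, 181, 198 and 83.6 CPM in Chow and 34, 39.8 and 38 CPM in HFD. Chrdl1, a secreted antagonist of bone morphogenetic proteins, was at 129, 299 and 165 CPM, 147, 162 and 99.9 CPM and 35.3, 32.7 and 28.7 CPM. For both, HFD PCN overlapped with Chow and HFD lay below all 6. HFD Vehicle was at 77.1, 232 and 82.1 CPM for Cacna1e and 80.5, 115 and 55 CPM for Chrdl1, above the HFD libraries as well. The same order held for Ppl, a desmosomal plakin (18.5, 32.3 and 23.1 CPM, 16.2, 13 and 24.4 CPM and 5.14, 5.99 and 2.92 CPM), Adgrb2 (3.89, 2.06 and 3.36 CPM, 2.16, 1.44 and 2.05 CPM and 0.398, 0.561 and 0.35 CPM) and the protease Prtn3 (1.48, 3.28 and 3.08 CPM, 2.83, 4.64 and 2.96 CPM and 0.362, 0.456 and 0.526 CPM). Sctr, the secretin receptor, was at 2.38, 13.9 and 9.8 CPM in HFD PCN, between Chow at 22.2, 44.7 and 35.1 CPM and HFD at 0.978, 1.19 and 1.17 CPM. Below HFD were Mgam, a glucosidase (1.22, 0.529 and 0.616 CPM, 1.42, 0.16 and 0.456 CPM in Chow and 6.45, 6.17 and 4.97 CPM in HFD), Frem1, a basement membrane protein (4.03, 0.899 and 0.28 CPM, 0.596, 0.08 and 0.114 CPM and 11, 17.3 and 20.7 CPM), and the imprinted RNA gene H19 (0.252, 0.159 and 0.336 CPM, 0.149, 0.08 and 0.114 CPM and 1.67, 1.89 and 1.99 CPM). Mgam was at 0.97, 0.64 and 1.12 CPM and H19 at 0.388, 0 and 0.267 CPM in HFD Vehicle, so these low levels were seen with vehicle too. The calls of HFD PCN against HFD that chose these genes numbered 732 and were 0 without HFD 4 or HFD 38 by edgeR's test (3136 and 3253 at an unadjusted p under 0.05), 0 with all 12 libraries in 1 fit (1871 at an unadjusted p under 0.05), 1 without HFD 30 and 4 without HFD PCN 27, and 5167 without HFD PCN 5. DESeq2 called 2435 with all 6 libraries.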

How the data were processed

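RNA of mouse gonadal white adipose tissue was sequenced in 12 libraries in 4 groups of 3. The deposited values are raw counts per gene that the authors made. HISAT2, HTSeq, DESeq2 and GRCm38 (mm10) are named in the submitters' processing notes, without versions. The strand setting of counting is not given in the sources at hand, so a gene is uncertain where another gene in GENCODE M21 covers more than 10% of its exon bases (7 of 178 named).

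The 2 tables were joined on the 28008 gene IDs in both, of which 27999 were found in GENCODE M21. Counts were tested as deposited with edgeR 4.0.16 in R 4.3.3 (TMM scaling, filterByExpr, quasi-likelihood test), on the 6 libraries of each comparison without covariates. Every adjusted p in the text is from the edgeR quasi-likelihood test, Benjamini-Hochberg adjusted over all genes tested, and 0.05 was the threshold. An adjusted p given for an alternative is from the same test refitted to the libraries named there, adjusted over the genes tested in that fit. SE is the absolute log2 fold change over the square root of F. CPM use TMM factors over all 12 libraries, which differ from the 6-library scale by factors of 0.975 to 1.03. Ratios of genes with 1 to 3 counts in a group have exact 95% intervals, and 0 is set to a floor of 3 counts over the group. These intervals cover counting error only. List levels by library are means of log2(CPM + 1). No 2 libraries of a group agreed within counting error (chi-square per degree of freedom at least 6.9). The test was also run on simulated counts, in which few genes changed and libraries varied independently. That does not check it for libraries that stand apart from their group.

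Named genes were the 10 largest rises and falls without overlap at a mean level of 1 CPM or more, the 5 smallest p-values, up to 4 called members of each of 37 lists by p (up to 2 by level where none was called), up to 8 genes in each direction set apart from HFD, and 8 genes always shown. Other list members were named after their values were seen. The comparison, the lists and the rule were chosen with earlier results of these data known. Alternatives covered scaling, tool (DESeq2 1.42.0, limma 3.58.1), filters, depth, thresholds and left-out libraries. Genes in 1 table only, among them Cfd, Adrb3, Retn and Hspa1a, are not analysed here. Some genes are not reported here.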

Additional observations from a re-analysis of the deposited data

How the results depend on the processing

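The 4424 genes called between HFD PCN and Chow were 2774 with all 12 libraries in 1 fit, 1583 at an adjusted p of 0.01 and 1613 in a test against a fold of 1.5, and 2221 to 4971 when 1 library was left out. Of the 284 list members called, 156 passed an adjusted p of 0.01 and 163 the test against a fold of 1.5, and 192 to 310 were called with 1 library left out. The 732 genes called between HFD PCN and HFD were 2435 by DESeq2, 1296 with no filter on low counts, 0 with all 12 libraries in 1 edgeR fit (1871 at an unadjusted p under 0.05), 2 at an adjusted p of 0.01, 4 in the test against a fold of 1.5, and 0 to 5167 with 1 library left out (3136 at an unadjusted p under 0.05 without HFD 4 and 3253 without HFD 38, where the count was 0). The 9654 genes called between HFD and Chow were 5373 in the test against a fold of 1.5. Raising the threshold makes fewer calls by construction, and for the other settings the cause was not tested. Other scalings, limma-voom, a filter at 1 CPM, thinning to the smallest library and leaving out mitochondrially encoded genes kept these counts of genes and of list members in all within 1.5 times. Single lists moved further: with upper quartile scaling the NRF2 rises were 2 in place of 4, oxidative phosphorylation falls 4 in place of 2 and fatty acid oxidation falls 4 in place of 1, and with limma-voom fatty acid oxidation falls were 2 and mast cell falls 0 in place of 1. Clock rises were 1 in place of 0 by DESeq2 and by limma-voom. Of 147 named genes called, 87 were called under every alternative in which they were tested, and 0 reversed. Among these 87, Prss46 was tested in 13 of the 17 alternatives and Prss55 in 16. Among named genes not called, the log2 fold change crossed 0 with 1 library left out for Ighm (-0.91 to 0.29, above 0 without Chow 8), Mgam (-0.30 to 1.43, below 0 without Chow 17 or 19) and Il2ra (-0.77 to 0.14, above 0 without HFD PCN 5). No paired analysis was possible because the groups share no replicate numbers.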
